A study of Mus musculus with 12 samples.

Results

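Cell cycle and DNA replication genes, 44 in number, were followed in the RNA of CD11b dendritic cells (DCs) of the mouse. They were taken by symbol from a table of 24391 gene symbols, in which all 44 were present. Of these genes, 17 act in S phase and its entry and 27 in mitosis. The cells came from wild-type C57BL/6J mice used at 8 to 12 weeks of age, and the series concerns established pulmonary fibrosis. All mice had breathed a replication-deficient adenovirus into the trachea, either the empty control vector (AdCL) or a vector with a pig TGF-β1 gene that yields the active protein (AdTGFb1). The titles give 3 libraries for each vector in experiment 1 and 3 in experiment 3, so each of the 4 groups differs from another by vector, by experiment or by both. Values of a group are given in the order of the DC numbers in the titles. Experiment 1 has DC 7, 8 and 9 for AdCL and DC 14, 52 and 54 for AdTGFb1. Experiment 3 has DC 943, 944 and 949 for AdCL and DC 954, 955 and 956 for AdTGFb1. The vector places TGF-β1 in infected cells of the airway rather than in the DCs alone, and the labels do not say whether a library is 1 animal or a pool, nor the time after the vector. A p-value here thus weighs a difference against the spread among libraries, which may be technical.

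Cells copy their DNA in S phase and part the copies in mitosis. Late in G1, cyclin E and E2F factors switch on genes for the MCM helicase, the sliding clamp and the enzymes that make deoxynucleotides, so these genes peak around the start of DNA synthesis. Genes for cyclins A and B, CDK1, the spindle checkpoint, the kinetochore and the spindle peak later, from G2 into mitosis, and many of them are held silent in resting cells through a promoter element called the CHR (cell cycle genes homology region). In tissues, conventional DCs arise from dividing precursors and only some of them cycle locally, while macrophages of the lung can renew by division. TGF-β is known to hold many cell types in G1.

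The promoters of the members differ in the letters they carry, and 4 are shown, chosen by adjusted p and not by their letters. RefSeq (GRCm38.p6) gave windows from 250 bases before to 50 bases after a start site for 38 of the 44 genes. Kif20a is among those without one. The S phase members had 17 windows from 15 genes, and the mitotic members 24 windows from 23 genes. In windows of S phase members, letters bound by E2F factors (TTTGGCGC, TTTCCCGC, TTTGCCGC or TTTCGCGC, on either strand) stood in 6 of 17 (35.3%), against 4.17% for mitotic members and 2.26% of all 32851 windows. The S phase members with such letters were Cdc6, Mcm3, Mcm5, Mcm6, Mcm7 and Uhrf1. The CHR letters TTTGAA, on either strand, stood in 18 of 24 windows of mitotic members (75.0%), in 11.8% for S phase members and in 17.9% of all windows. CCAAT, on either strand, was in 70.6%, 83.3% and 37.4% of windows of S phase members, mitotic members and all genes. These are matches of letters and not measured binding. Ccne1 (chr7:38107441-38107740, minus strand), Mcm6 (chr1:128359656-128359955, minus strand) and Bub1b (chr2:118597961-118598260, plus strand) were taken for the smallest adjusted p over both experiments, and Top2a (chr11:99024140-99024439, minus strand) was chosen after its values were seen, for the smallest adjusted p of the difference between experiments. Capitals mark the E2F letters and CCAAT in Mcm6, and TTTGAA and CCAAT in Bub1b and Top2a, each also where it lies on the other strand (TTCAAA for TTTGAA and ATTGG for CCAAT). The run of 12 capitals in Mcm6 is 1 pair of E2F matches that overlap. The Ccne1 window holds none of these letters, and the TTTGAA of Bub1b lies after the start site, at bases 291 to 296 of its window.
Ccne1: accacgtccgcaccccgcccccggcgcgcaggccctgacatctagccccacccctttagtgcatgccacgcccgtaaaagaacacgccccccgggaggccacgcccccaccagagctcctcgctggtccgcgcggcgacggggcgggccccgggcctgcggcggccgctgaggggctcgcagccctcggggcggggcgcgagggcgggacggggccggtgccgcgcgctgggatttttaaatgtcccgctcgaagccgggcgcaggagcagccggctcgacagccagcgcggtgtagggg
Mcm6: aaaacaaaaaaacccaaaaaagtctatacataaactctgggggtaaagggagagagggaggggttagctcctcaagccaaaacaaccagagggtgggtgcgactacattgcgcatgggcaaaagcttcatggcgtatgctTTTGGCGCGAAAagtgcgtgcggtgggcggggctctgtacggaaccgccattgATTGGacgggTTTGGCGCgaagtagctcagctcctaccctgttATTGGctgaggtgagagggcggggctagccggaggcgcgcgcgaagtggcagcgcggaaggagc
Bub1b: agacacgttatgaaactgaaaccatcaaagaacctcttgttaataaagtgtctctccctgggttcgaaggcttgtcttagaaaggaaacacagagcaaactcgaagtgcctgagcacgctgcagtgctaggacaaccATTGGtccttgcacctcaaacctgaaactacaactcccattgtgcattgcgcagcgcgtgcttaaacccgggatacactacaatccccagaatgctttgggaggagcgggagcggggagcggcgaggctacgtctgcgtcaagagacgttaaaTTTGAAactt
Top2a: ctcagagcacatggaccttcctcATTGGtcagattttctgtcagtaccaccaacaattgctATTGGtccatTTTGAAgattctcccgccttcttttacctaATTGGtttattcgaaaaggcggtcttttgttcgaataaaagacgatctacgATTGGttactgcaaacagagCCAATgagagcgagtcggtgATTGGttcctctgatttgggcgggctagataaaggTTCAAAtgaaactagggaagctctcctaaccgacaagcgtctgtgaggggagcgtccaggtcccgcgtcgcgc

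The libraries held 10099912 to 15594546 counts, of which the 44 genes together took 0.136 to 0.150% in AdCL and 0.256 to 0.306% in AdTGFb1 of experiment 1, and 0.172 to 0.203% and 0.136 to 0.149% in experiment 3. All 44 passed the low-count filter. Of them, 39 reached its level in all 3 libraries of every group, and 1, Ccnb1, did so only in AdTGFb1 of experiment 1. Xist and the Y-linked gene Ddx3y marked AdCL DC 7, 8 and 9 and AdTGFb1 DC 14 as male and the other 8 libraries as female, so in experiment 1 vector and sex move together apart from DC 14. Itgam, which encodes CD11b, averaged 370.1 ± 49.1 and 364 ± 88.1 CPM (counts scaled to library depth, SD, n = 3) in AdCL and AdTGFb1 of experiment 1 and 474 ± 81.6 and 361 ± 65.8 CPM in experiment 3, and Itgax averaged 977 CPM over the 12 libraries. Zbtb46, a factor of conventional DCs, was present and fell with AdTGFb1 over both experiments (log2 fold change -1.63 ± 0.17, SE, adjusted p = 4.58e-06), while Csf1r, a receptor of macrophages, rose (0.81 ± 0.10, adjusted p = 1.73e-05).

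With AdTGFb1, 25 of the 44 cell cycle genes rose in experiment 1 and none rose in experiment 3. In experiment 1, 0 members were lower, and the 25 stand against 24.7% of the 13221 tested genes called (10.6% higher, 14.1% lower). These were 9 of 17 S phase members, with a median log2 fold change of 1.04 over all 17, and 16 of 27 mitotic members, with a median of 1.40 over all 27. Of the 44 effects, 43 were positive. Calls are at an adjusted p under 0.05 in edgeR's quasi-likelihood test, with Benjamini-Hochberg adjustment over all tested genes, whose median effect was -0.03. All 3 AdTGFb1 libraries lay above all 3 AdCL libraries for 36 members, as they did for 18.8% of all tested genes. In these bulk samples a larger share of dividing cells and more RNA per dividing cell cannot be told apart.

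In experiment 3 no S phase member was called in either direction, with a median effect of 0.04. By edgeR 0 of the 17 reached an unadjusted p under 0.05, and DESeq2 called 0. Among mitotic members 0 were higher (0 at an unadjusted p under 0.05, and 0 with DESeq2) and 3 lower (Mki67, Top2a and Birc5), with a median of -0.39, against 6.43% of genes called (1.97% higher, 4.46% lower). For 11 members, 10 of them mitotic and the other Pcna, all AdTGFb1 libraries lay below all AdCL libraries, against 12.9% of all tested genes, and for none did they lie above. Of the 3 calls, Mki67 held without any single library. Birc5 was lost without AdCL DC 943 or AdTGFb1 DC 955 (adjusted p from 0.0604 to 0.0615), and Top2a without AdCL DC 943, 944 or 949 or AdTGFb1 DC 955 or 956 (adjusted p from 0.0529 to 0.116). Top2a was also lost when only the 6 libraries of experiment 3 were fitted (adjusted p = 0.0658).

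The vector's effect differed between the experiments for 17 members, all with the smaller or more negative effect in experiment 3. This interaction, the effect in experiment 3 minus that in experiment 1, was called for 3 S phase and 14 mitotic members, all negative, against 6.02% of genes called (3.43% positive, 2.59% negative). Its median was -0.86 for S phase members and -1.86 for mitotic members, and it was below 0 for all 44. The difference between these medians was not tested. Averaged over both experiments, 6 members were higher with AdTGFb1 (Mcm2, Mcm3, Mcm6, Ccne1, Bub1b and Kif20a) and 0 lower, against 17.2% of genes called (6.78% higher, 10.4% lower). With a term for sex the calls in experiment 1 went from 25 to 16 members, 6 S phase and 10 mitotic, while calls over all genes went from 3264 to 1296. For the interaction they went from 3 to 0 S phase and from 14 to 8 mitotic members, and from 796 to 157 genes in all. That term rests on AdTGFb1 DC 14 against DC 52 and 54. The male library DC 14 lay above all 3 AdCL libraries, also male, for 42 of 44 members, as it did for 31.8% of all tested genes. The exceptions were E2f1 and Cenpa.

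**Figure D1:**
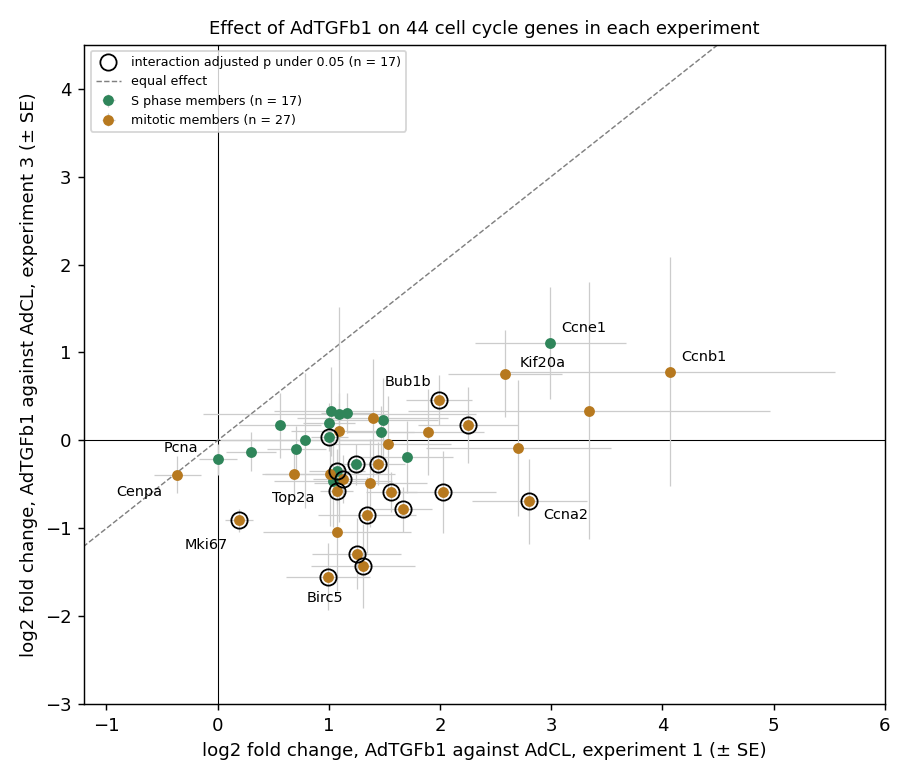
The log2 fold change of AdTGFb1 against AdCL in experiment 1 (x axis) and experiment 3 (y axis) is shown for each of the 44 members, with bars of 1 SE; green points are S phase and ochre points mitotic members, and black rings mark the 17 with an interaction at an adjusted p under 0.05. All 44 points lie below the dashed line of equal effect, and most lie right of 0 on the x axis and near or below 0 on the y axis.

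The MCM genes encode the 6 subunits of the ring that unwinds DNA at the replication fork, and 4 of the 6 rose in experiment 1 (Mcm2, Mcm3, Mcm5 and Mcm6). For this and the next small groups of members, 10.6% of all tested genes were called higher in experiment 1. Mcm3 held 56.6, 75.3 and 52.8 CPM in AdCL and 111, 131 and 128 CPM in AdTGFb1 of experiment 1, and 101, 108 and 118 and 113, 106 and 117 CPM in experiment 3. The AdCL libraries of experiment 1 were the low ones, and the other 3 groups overlapped. Its effect was 1.00 ± 0.17 in experiment 1 (adjusted p = 0.000114) and 0.04 ± 0.16 in experiment 3, with an interaction of -0.96 ± 0.23 (adjusted p = 0.0146). Mcm5 held 21.4, 30.0 and 25.2 CPM in AdCL and 63.4, 60.0 and 58.6 CPM in AdTGFb1 of experiment 1, then 35.8, 27.4 and 50.8 and 31.7, 34.7 and 28.0 CPM. Here the AdTGFb1 libraries of experiment 1 stood above all others. The effect of 1.25 ± 0.24 in experiment 1 (adjusted p = 0.000529) was followed by -0.27 ± 0.24, and the interaction was -1.52 ± 0.34 (adjusted p = 0.00800). For Mcm6 the levels were 30.4, 24.7 and 46.6 CPM in AdCL and 74.6, 79.9 and 73.7 CPM in AdTGFb1 of experiment 1, and 50.3, 34.3 and 56.2 and 54.8, 66.0 and 53.8 CPM in experiment 3. Its groups stood apart in experiment 1 and overlapped in experiment 3, and over both experiments its effect was 0.74 ± 0.20 (adjusted p = 0.0137; 0.0667 with a term for sex). Mcm2 gained 1.00 in experiment 1 (adjusted p = 0.00289) and its interaction of -0.81 was not called. Mcm4 (0.30) and Mcm7 (0.71, adjusted p = 0.0547) did not pass in experiment 1. Mcm7 passed there without AdCL DC 7 or 944 or AdTGFb1 DC 955. It also passed without a low-count filter, with a minimum mean of 1 CPM and in the 6 libraries of experiment 1 alone. In these settings its adjusted p ran from 0.0277 to 0.0462. Over both experiments the call of Mcm2 (adjusted p = 0.0368) was lost without AdCL DC 7, 8, 9 or 943 or AdTGFb1 DC 14, 52, 54 or 956 (adjusted p from 0.0585 to 0.0903). That of Mcm3 (0.0361) was lost without AdCL DC 7, 8 or 9 or AdTGFb1 DC 14, 52 or 54 (adjusted p from 0.0573 to 0.0919) and without a term for the experiment (0.1105). With a term for sex these calls were at 0.196 and 0.217, and in experiment 1 that of Mcm2 was at 0.0927. The interactions of Mcm3 and Mcm5 were at 0.183 and 0.0586 with that term.

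Of the genes that load the helicase and hold the polymerase, none was called in either experiment. Pcna, the clamp that keeps polymerases on DNA, held 91.4, 89.2 and 95.9 CPM in AdCL and 102, 105 and 71.1 CPM in AdTGFb1 of experiment 1, and 72.3, 83.3 and 73.3 and 65.4, 69.4 and 62.3 CPM in experiment 3. Its groups overlapped in experiment 1, with an effect of 0.01 ± 0.17, the smallest of the S phase members, and in experiment 3 the AdTGFb1 libraries lay below the AdCL libraries (-0.22 ± 0.17, adjusted p = 0.576). Reads of Pcna may be shared with processed copies in the genome (Pcna-ps1 and Pcna-ps2). Cdc6, which brings MCM rings to origins, had 0.743 to 5.06 CPM in AdCL and 4.08 to 7.19 CPM in AdTGFb1 of experiment 1, with overlap (0.79 ± 0.77, adjusted p = 0.497). Cdc45, a part of the moving helicase, had 4.55 to 6.51 and 9.31 to 14.5 CPM there, with no overlap and an effect of 1.04 ± 0.53 that did not pass (adjusted p = 0.159).

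Enzymes that supply deoxynucleotides rose in 3 of 4 cases in experiment 1. Rrm1 and Rrm2 encode the large and small subunit of ribonucleotide reductase. Rrm1 held 31.3, 36.2 and 19.7 CPM in AdCL and 58.3, 59.5 and 65.5 CPM in AdTGFb1 of experiment 1, and 41.4, 40.5 and 36.3 and 42.1, 25.2 and 25.7 CPM in experiment 3. Its 3 AdTGFb1 libraries of experiment 1 were the highest of the 12, and in experiment 3 the groups overlapped. The effects were 1.07 ± 0.25 (adjusted p = 0.00303) and -0.35 ± 0.25, with an interaction of -1.42 ± 0.35 (adjusted p = 0.0175), lost without AdTGFb1 DC 956 (adjusted p = 0.0525) and with a term for sex (0.142). Rrm2 held 7.03, 8.75 and 7.25 CPM in AdCL and 22.4, 31.6 and 20.9 CPM in AdTGFb1 of experiment 1, and 5.48 to 8.44 and 3.83 to 8.44 CPM in experiment 3. Only the AdTGFb1 libraries of experiment 1 exceeded 20 CPM. Its effect there was 1.70 ± 0.42 (adjusted p = 0.00425), and its interaction of -1.89 ± 0.58 missed the threshold (adjusted p = 0.0539; 0.0185 with DESeq2). With a term for sex, Rrm1 and Rrm2 of experiment 1 were at 0.0668 and 0.0782. Tk1, which salvages thymidine, rose by 1.49 ± 0.50 (adjusted p = 0.0319), with 26.8 CPM in AdTGFb1 DC 14 against 11.2 and 11.3 CPM in DC 52 and 54. Its call was lost without AdCL DC 7 or 9 or AdTGFb1 DC 14 (adjusted p from 0.0584 to 0.240). Tyms, thymidylate synthase, had an effect of 1.02 ± 0.51 that did not pass (adjusted p = 0.154), and processed copies of Tyms may share its reads.

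Among the genes of the G1 to S passage, Ccne1 and Uhrf1 rose in experiment 1. Ccne1 encodes cyclin E1, the partner of CDK2 at the entry to S phase. It held 1.03, 1.39 and 1.39 CPM in AdCL and 11.6, 10.7 and 8.31 CPM in AdTGFb1 of experiment 1, and 3.46, 1.95 and 3.35 and 9.97, 6.30 and 2.66 CPM in experiment 3. The groups did not overlap in experiment 1, and in experiment 3 only DC 956 of the AdTGFb1 libraries lay within the AdCL range. The effects were 2.99 ± 0.68 (adjusted p = 0.00239) and 1.11 ± 0.63 (adjusted p = 0.377), and 2.03 ± 0.51 over both (adjusted p = 0.00958). The last call held in every setting tried. Uhrf1, which carries DNA methylation over to the new strand, held 19.1, 14.6 and 11.1 CPM in AdCL and 47.2, 37.6 and 39.0 CPM in AdTGFb1 of experiment 1, and 16.3, 20.3 and 29.1 and 28.0, 24.6 and 17.7 CPM in experiment 3. Its effect of 1.47 ± 0.30 (adjusted p = 0.000936) was followed by 0.09 ± 0.29, and the interaction of -1.37 ± 0.42 missed the threshold (adjusted p = 0.0521; 0.0316 with DESeq2). E2f1, the factor that drives many S phase genes, did not pass in either experiment (0.56 ± 0.37 and 0.17 ± 0.37). It was called higher in experiment 1 without AdCL DC 7 (1.17, adjusted p = 0.0337). Ccne2, cyclin E2, had 4.72 to 6.05 CPM in AdTGFb1 of experiment 1, had no count in AdCL DC 944 and AdTGFb1 DC 954, and did not pass.

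The median effect of mitotic members was above that of S phase members in experiment 1 (1.40 and 1.04). It was below it in experiment 3 (-0.39 and 0.04), and neither difference was tested. Of the cyclins, Ccna2, needed in S phase and G2, held 7.34, 0.994 and 4.74 CPM in AdCL and 31.4, 24.4 and 35.5 CPM in AdTGFb1 of experiment 1, and 22.0, 8.79 and 11.6 and 7.32, 8.06 and 10.7 CPM in experiment 3. The AdTGFb1 libraries of experiment 1 were the highest 3, and AdCL DC 943 came next to them. Its effects were 2.80 ± 0.52 (adjusted p = 0.000349) and -0.69 ± 0.48, and its interaction of -3.50 ± 0.70 (adjusted p = 0.00397) was the most negative of the 44. Ccnb2, a cyclin B, had 4.55 to 11.5 and 16.3 to 25.4 CPM in AdCL and AdTGFb1 of experiment 1, and 7.21 to 12.9 and 1.81 to 4.71 CPM in experiment 3. The groups stood apart in opposite orders in the 2 experiments, with effects of 1.31 ± 0.47 (adjusted p = 0.0454) and -1.43 ± 0.48 (adjusted p = 0.0815) and an interaction of -2.73 ± 0.67 (adjusted p = 0.0159). Its call in experiment 1 was lost without AdCL DC 7 or 9 or AdTGFb1 DC 14, 52 or 54 (adjusted p from 0.0583 to 0.145), and its interaction without AdCL DC 949 (adjusted p = 0.0538). The term for sex left them at 0.115 and 0.0636, and DESeq2 called the lower level in experiment 3 (0.0380). Ccnb1, the main mitotic cyclin, had no count in AdCL DC 7 and 8, 0.929 CPM in DC 9 and 4.74 to 6.51 CPM in the AdTGFb1 libraries of experiment 1. It is counted among the 25 genes that rose, though only in that AdTGFb1 group did all 3 libraries reach the filter's level. Its fitted effect of 4.07 ± 1.48 (adjusted p = 0.0473) depends on the prior count and was lost without AdCL DC 7 or 8 or AdTGFb1 DC 14, 52, 54 or 956 (adjusted p from 0.0563 to 0.112) and with a term for sex (0.156). Cdk1, the kinase these cyclins bind, had 2.79 to 4.48 and 7.56 to 12.7 CPM in experiment 1 with no overlap and just missed the threshold (1.54 ± 0.57, adjusted p = 0.0513), which it passed with DESeq2 (0.0215). Processed copies may share reads of Ccnb1 and Ccnb2.

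By edgeR's quasi-likelihood test as reported, the mitotic kinases Plk1, Aurka and Aurkb were not called in any comparison of the vectors. Aurkb, the kinase of the chromosomal passenger complex, had 2.78 to 6.60 CPM in AdCL and 10.2 to 17.5 CPM in AdTGFb1 of experiment 1 (1.37 ± 0.51, adjusted p = 0.0528). It was called there by DESeq2 (adjusted p = 0.0216), with a minimum mean of 1 CPM (0.0444) and without AdCL DC 9 (0.0463), and Plk1 was called there without AdCL DC 9 (0.0320). Aurka had 22.3 CPM in AdTGFb1 DC 14 and 10.0 and 6.05 CPM in DC 52 and 54, of which the last lay within the AdCL range of 3.93 to 9.20 CPM. Birc5 (survivin), another part of the passenger complex, held 18.9, 21.6 and 9.39 CPM in AdCL and 37.2, 33.5 and 28.7 CPM in AdTGFb1 of experiment 1, and 32.1, 22.6 and 19.5 and 10.0, 3.83 and 11.3 CPM in experiment 3. The AdTGFb1 libraries were above AdCL in experiment 1 and below AdCL in experiment 3. The effects were 1.00 ± 0.38 (adjusted p = 0.0569) and -1.55 ± 0.38 (adjusted p = 0.0145; lost without AdCL DC 943 or AdTGFb1 DC 955 at 0.0604 to 0.0615), and the interaction was -2.54 ± 0.54 (adjusted p = 0.00580). In experiment 1 Birc5 was called higher without AdCL DC 8 or AdTGFb1 DC 955. It was also called there without a low-count filter, with a minimum mean of 1 CPM and in the 6 libraries of experiment 1 alone. In these settings its adjusted p ran from 0.0241 to 0.048. Cdca8 (borealin), the other passenger subunit followed, did not pass in either experiment (1.09 and 0.11), nor did Plk1 (1.40 and 0.26).

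Genes of the spindle checkpoint, which delays the parting of chromosomes until all are attached, rose in 3 of 4 cases in experiment 1. Bub1b (BubR1) held 14.7, 10.9 and 23.5 CPM in AdCL and 69.5, 72.1 and 53.7 CPM in AdTGFb1 of experiment 1, and 22.3, 25.1 and 31.7 and 50.6, 29.8 and 28.2 CPM in experiment 3. In experiment 1 the lowest AdTGFb1 library was far above the highest AdCL library, while in experiment 3 only DC 954 lay above the AdCL range. The effects were 1.99 ± 0.29 (adjusted p = 2.99e-05) and 0.46 ± 0.28 (adjusted p = 0.429), and 1.22 ± 0.28 over both (adjusted p = 0.00560), a call that held in every setting tried. The interaction of -1.53 ± 0.40 (adjusted p = 0.0250) was lost without AdCL DC 8 or 949 or AdTGFb1 DC 52, 955 or 956 (adjusted p from 0.0537 to 0.0726) and with a term for sex (0.111). Bub1, a kinase at unattached kinetochores, had 3.41 to 6.32 and 16.5 to 21.2 CPM in AdCL and AdTGFb1 of experiment 1 and rose by 2.03 ± 0.48 (adjusted p = 0.00322), with an interaction of -2.61 (adjusted p = 0.0199) that was lost without AdTGFb1 DC 54 or 956 or AdCL DC 943 (adjusted p from 0.0524 to 0.0597) and with a term for sex (0.117). Mad2l1, which holds Cdc20 in check, rose by 2.70 ± 0.83 (adjusted p = 0.0205), lost without AdCL DC 7 or 9 or AdTGFb1 DC 52 or 54 (adjusted p from 0.0514 to 0.113) and at 0.505 with a term for sex. Ttk was near the floor of 3 counts, 0.181 to 0.310 CPM by library, in several libraries and was not called. Cdc20 activates the ubiquitin ligase APC/C and Ube2c is the enzyme that feeds it ubiquitin. Ube2c had 5.11 to 15.1 and 24.3 to 28.3 CPM in AdCL and AdTGFb1 of experiment 1, and 12.7 to 18.0 and 4.83 to 8.86 CPM in experiment 3, apart in opposite orders. Its effects were 1.25 ± 0.40 (adjusted p = 0.0259) and -1.29 ± 0.41 (adjusted p = 0.0600), with an interaction of -2.54 ± 0.57 (adjusted p = 0.00890). The call in experiment 1 was lost without AdCL DC 9 or AdTGFb1 DC 14, 52 or 54 (adjusted p from 0.0507 to 0.0891). That call was at 0.163 and the interaction at 0.0731 with a term for sex, while DESeq2 called the lower level in experiment 3 (0.0271). Cdc20 had effects of 1.08 and -1.04, with groups that overlapped in experiment 3, and was not called.

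At the kinetochore, where spindle fibres grip a chromosome, Cenpe, Cenpf and Ndc80 rose in experiment 1. Cenpe, a kinesin that brings chromosomes to the spindle equator, held 54.7, 36.0 and 27.7 CPM in AdCL and 148, 113 and 88.6 CPM in AdTGFb1 of experiment 1, and 62.6, 59.0 and 60.1 and 41.0, 37.4 and 42.3 CPM in experiment 3. Both experiments showed 2 groups that did not overlap, with AdTGFb1 on top in the former and AdCL in the latter. The effects were 1.56 ± 0.23 (adjusted p = 2.76e-05) and -0.59 ± 0.23 (adjusted p = 0.140), and the interaction was -2.15 ± 0.32 (adjusted p = 0.000337). Cenpf, a large protein of the outer kinetochore, held 24.1, 16.7 and 33.0 CPM in AdCL and 97.0, 77.2 and 60.7 CPM in AdTGFb1 of experiment 1, and 53.1, 38.8 and 41.1 and 19.9, 28.8 and 28.6 CPM in experiment 3, in the same order as Cenpe. Its effects were 1.67 ± 0.26 (adjusted p = 5.96e-05) and -0.78 ± 0.26 (adjusted p = 0.0740), with an interaction of -2.45 ± 0.37 (adjusted p = 0.000338). Ndc80, which binds the microtubule, rose by 1.89 ± 0.50 in experiment 1 (adjusted p = 0.00790; 0.0927 with a term for sex). Cenpa, the histone H3 variant that marks the centromere, was the exception. It held 55.2, 68.4 and 65.0 CPM in AdCL and 66.7, 33.4 and 46.7 CPM in AdTGFb1 of experiment 1, and 76.2, 78.2 and 82.1 and 67.2, 59.9 and 53.7 CPM in experiment 3. It was the 1 member with a negative effect in experiment 1 (-0.36 ± 0.21, adjusted p = 0.231), had a like value in experiment 3 (-0.39 ± 0.21, adjusted p = 0.352) and the interaction closest to 0 (-0.03 ± 0.30). In experiment 1 the male library DC 14 lay within the AdCL range, and DC 52 and 54 lay below it, and without DC 14 Cenpa was called lower in that experiment (-0.65, adjusted p = 0.0371).

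Of the 6 genes of the spindle and of cytokinesis, 5 rose in experiment 1. Tpx2, which starts microtubules around chromosomes, held 25.7, 19.9 and 23.9 CPM in AdCL and 65.0, 70.8 and 52.6 CPM in AdTGFb1 of experiment 1, and 24.2, 31.4 and 30.6 and 18.3, 21.4 and 32.1 CPM in experiment 3. All libraries outside AdTGFb1 of experiment 1 lay below 33 CPM. Its effects were 1.44 ± 0.25 (adjusted p = 0.000191) and -0.26 ± 0.25, with an interaction of -1.70 ± 0.35 (adjusted p = 0.00488). Kif20a, a kinesin of the cleavage furrow, held 5.06, 5.17 and 5.48 CPM in AdCL and 38.5, 29.7 and 26.4 CPM in AdTGFb1 of experiment 1, and 6.54, 2.12 and 7.50 and 3.21, 14.9 and 9.24 CPM in experiment 3. The 3 AdCL libraries of experiment 1 lay close together and far below AdTGFb1, and the groups of experiment 3 overlapped. The effects were 2.59 ± 0.51 (adjusted p = 0.000723) and 0.76 ± 0.49, and 1.67 ± 0.44 over both (adjusted p = 0.0118), which held in every setting tried. Of the exons of Kif20a, 29.3% lie opposite Cdc23, and the strand setting of the counting is not given in the sources used here. Prc1, which bundles microtubules in the spindle midzone, rose by 2.25 ± 0.45 (adjusted p = 0.000782), and its interaction of -2.07 was at the threshold (adjusted p = 0.0482) and was lost without AdCL DC 7, 9, 943 or 949 or AdTGFb1 DC 14, 52, 54, 954 or 956 (adjusted p from 0.0665 to 0.116) and with a term for sex (0.168). Kif11, the motor that pushes spindle poles apart, had 81.8, 59.0 and 37.0 CPM in AdTGFb1 of experiment 1 against 20.4 to 31.1 CPM in AdCL. Its effect of 1.13 ± 0.27 (adjusted p = 0.00407) and its interaction of -1.57 (adjusted p = 0.0167) were lost without AdTGFb1 DC 14 (0.0522 and 0.0620). Nusap1, a microtubule-binding protein, rose by 1.34 ± 0.44 (adjusted p = 0.0297; lost without AdCL DC 9 or AdTGFb1 DC 52 at 0.0878 to 0.121), with an interaction of -2.19 (adjusted p = 0.0376) lost without AdTGFb1 DC 52, 955 or 956 or AdCL DC 943 (adjusted p from 0.0750 to 0.108). Both were lost with a term for sex (0.241 and 0.213). Kif23, of the centralspindlin complex, did not pass (0.69 and -0.39).

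**Figure D2:**
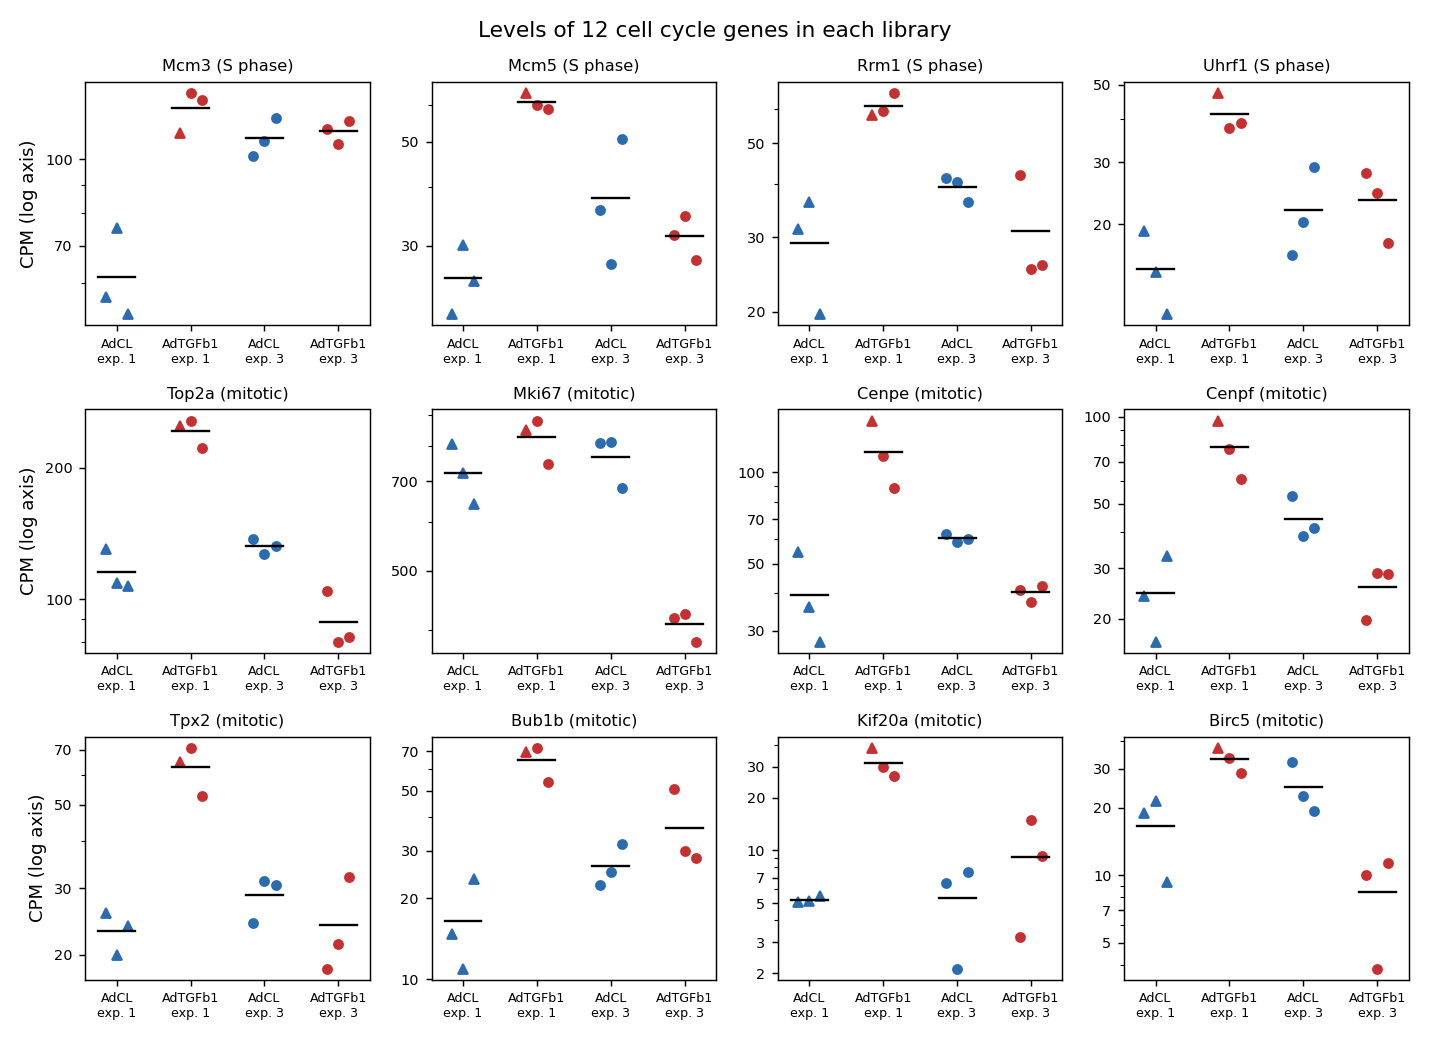
Each panel shows the level of 1 gene in CPM on a log axis in the 12 libraries (blue AdCL, red AdTGFb1; triangles male, circles female), with a bar at the group mean. For most of the 12 genes AdTGFb1 of experiment 1 is the highest group, while Mki67 stands out by 1 low group, AdTGFb1 of experiment 3, at 383 to 424 CPM.

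Top2a and Mki67, the most used markers of dividing cells, did not move alike. Top2a encodes the topoisomerase that untangles sister chromosomes. It held 130.2, 109 and 107 CPM in AdCL and 249.6, 256 and 222 CPM in AdTGFb1 of experiment 1, and 137, 127 and 132 and 105, 80.1 and 82.0 CPM in experiment 3. The AdTGFb1 libraries lay above AdCL in experiment 1 and below AdCL in experiment 3. The effects were 1.07 ± 0.15 (adjusted p = 1.84e-05) and -0.57 ± 0.15 (adjusted p = 0.0225), and the interaction of -1.64 ± 0.21 (adjusted p = 9.73e-05) had the smallest p of the 44. In experiment 3 the call was lost without AdCL DC 943, 944 or 949 or AdTGFb1 DC 955 or 956 (adjusted p from 0.0529 to 0.116). Mki67 encodes Ki-67, which coats mitotic chromosomes. It held 805, 722 and 643 CPM in AdCL and 849, 880.2 and 748 CPM in AdTGFb1 of experiment 1, and 810.0, 811 and 683 and 419, 424 and 383 CPM in experiment 3. The first 3 groups overlapped, and AdTGFb1 of experiment 3 lay below all of them. Its effect in experiment 1 was 0.19 ± 0.13 (adjusted p = 0.302), in experiment 3 -0.91 ± 0.13 (adjusted p = 0.000124), and the interaction was -1.10 ± 0.18 (adjusted p = 0.000876). The ratio of Mki67 to Top2a in CPM was 5.98 to 6.62 in AdCL and 3.38 to 3.43 in AdTGFb1 of experiment 1, and 5.16 to 6.38 and 4.0 to 5.3 in experiment 3. It was lowest, and least spread, in AdTGFb1 of experiment 1.

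Per length of transcript, Mki67 also stood above the other members in level. With the exons of each gene in the GENCODE M21 annotation as length, its level averaged 67.7 CPM per kb over the 12 libraries, against a median of 3.59 CPM per kb over the 44 genes. Pcna followed with 34.0 and Mcm3 with 27.1 CPM per kb, and Mad2l1, Ccnb1 and Ttk were the lowest. The highest, Mki67 and Pcna, were also 2 of the genes with the smallest effects in experiment 1 (0.19 and 0.01), and Cenpa, with the only negative effect, ranked 7 in level. Other genes of high level rose there: Mcm3 (rank 3, effect 1.00), Top2a (5, 1.07), Mcm6 (6, 1.17) and Mcm5 (8, 1.25). Mcm4 (rank 4, 0.30) was not called. Ttk and Ccnb1, the lowest, had the fitted effects with the widest errors in experiment 1 (3.34 ± 1.63 and 4.07 ± 1.48). The annotation is of another build than the counts, and its lengths join all transcripts of a gene.

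**Figure D3:**
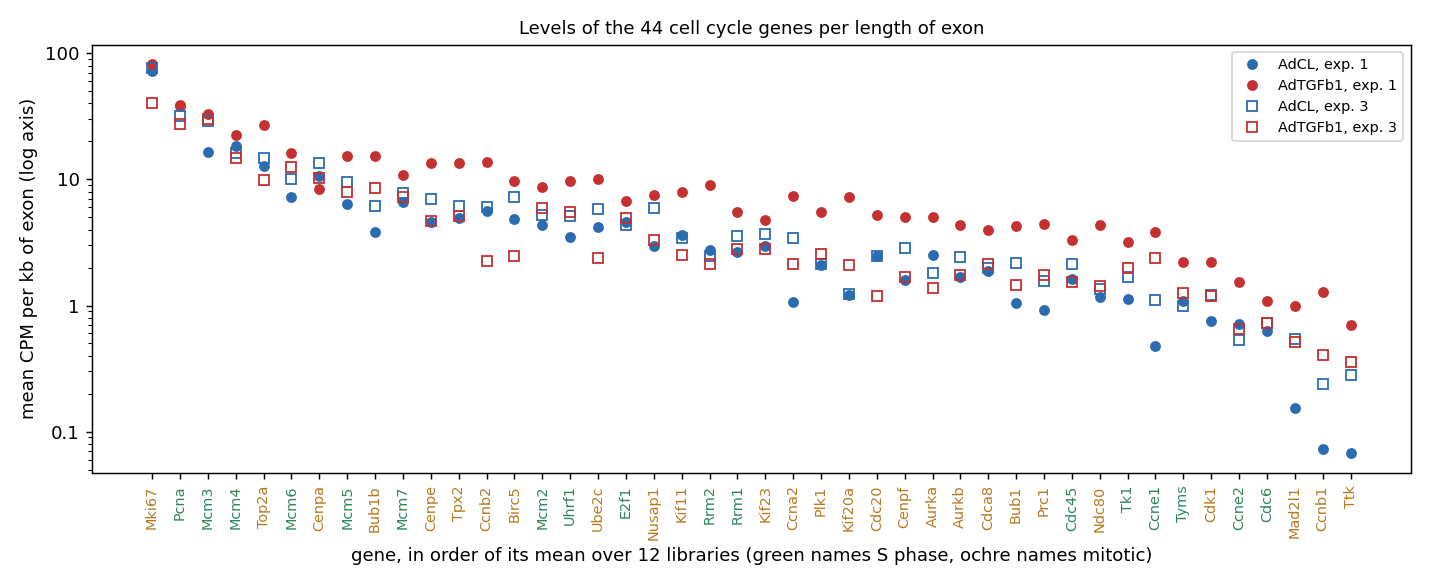
Points give the mean level of each of the 44 genes in CPM per kb of exon (log axis) in each group (filled, experiment 1; open squares, experiment 3; blue AdCL, red AdTGFb1), with genes in order of their mean over 12 libraries. Mki67 leads with 67.7 CPM per kb on average, and the red filled points of AdTGFb1 in experiment 1 are the highest for all genes but Cenpa.

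S phase and mitotic genes both stood highest in AdTGFb1 of experiment 1, and only the mitotic level set all other groups apart from each other. As the mean of log2 CPM over its members, the S phase level was 3.78 ± 0.21 in AdCL and 4.90 ± 0.11 in AdTGFb1 of experiment 1 (SD, n = 3), and 4.02 ± 0.31 and 4.05 ± 0.15 in experiment 3. AdTGFb1 of experiment 1 stood above the other 3 groups, and the range of AdCL in experiment 3 overlapped those of both remaining groups. The mitotic level was 3.19 ± 0.05 and 4.86 ± 0.11 in experiment 1, and 3.80 ± 0.20 and 3.44 ± 0.07 in experiment 3. Here no pair of groups overlapped, and the order from high to low was AdTGFb1 of experiment 1, AdCL of experiment 3, AdTGFb1 of experiment 3 and AdCL of experiment 1. This mean counts each gene alike, and the order of the 2 lowest groups depends on the measure. The summed CPM of 40 other mitotic genes, described below, was 820 to 910 in AdCL of experiment 1. It was lower, 736 to 785, in AdTGFb1 of experiment 3. Some members, Mki67 and Top2a among them, also had these 2 groups in that reverse order. The S phase level minus the mitotic level was 0.37 to 0.76 in AdCL and 0.03 to 0.06 in AdTGFb1 of experiment 1, and 0.07 to 0.43 and 0.45 to 0.82 in experiment 3. It was thus smaller with AdTGFb1 in experiment 1 and larger with AdTGFb1 in experiment 3, with no overlap in either. With a prior count of 0.5 in place of 2 the groups of experiment 3 overlapped (-0.00 to 0.43 and 0.35 to 0.86). With the 15 S phase and 24 mitotic members of at least 5 CPM they did not (0.02 to 0.49 and 0.60 to 0.77), nor did those of experiment 1 (0.29 to 0.47 and -0.08 to 0.13). These levels are a description over genes chosen as a list, and no test was made on them.

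**Figure D4:**
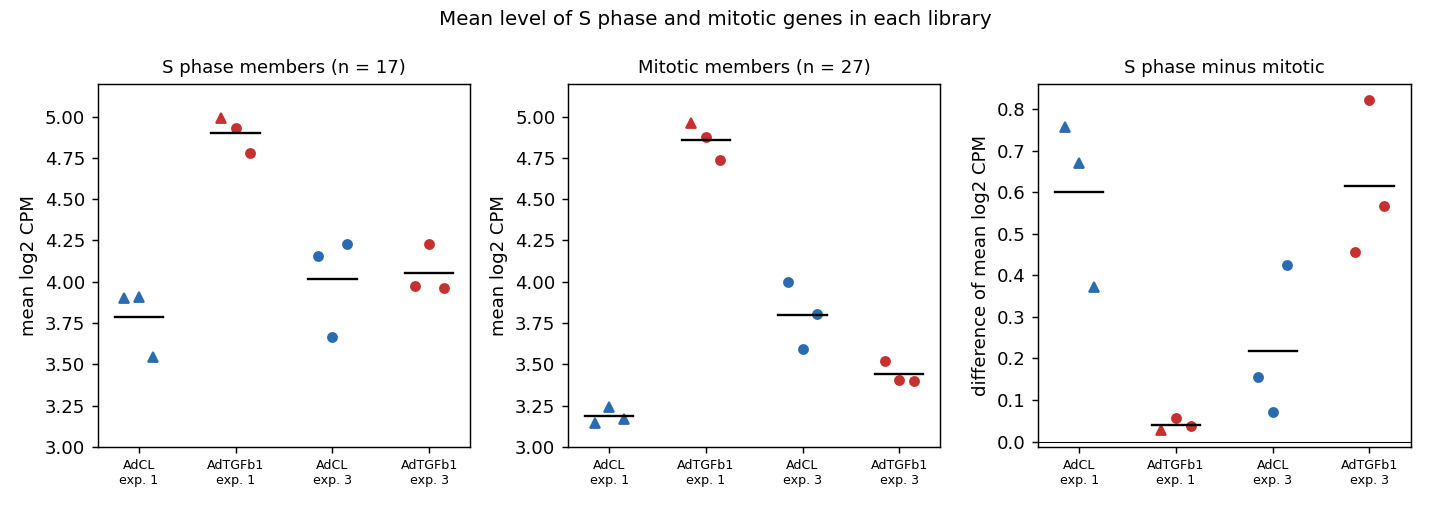
The left and middle panels show the mean log2 CPM of the 17 S phase and 27 mitotic members in each library, and the right panel their difference (blue AdCL, red AdTGFb1; triangles male, circles female; bars, group means). In the right panel AdTGFb1 lies below AdCL in experiment 1 and above AdCL in experiment 3.

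Within 1 vector, more of the 44 members were called between the experiments with AdTGFb1 than with AdCL, though over all genes this was not so. With AdTGFb1, 16 members were lower in experiment 3 than in experiment 1 and 0 higher, 3 of them S phase and 13 mitotic, against 7.81% of genes called (4.61% higher, 3.2% lower). The S phase genes were Mcm5, Rrm1 and Rrm2. The mitotic genes included Top2a (-1.45 ± 0.15, adjusted p = 6.55e-06) and Mki67 (-1.02 ± 0.13, adjusted p = 4.61e-05). Of the 16 calls, 10 held without any single library. Those of Mcm5, Rrm1, Ccna2, Bub1, Ndc80 and Kif20a did not: Mcm5 was lost without AdTGFb1 DC 956 (adjusted p = 0.0796) and Rrm1 without AdTGFb1 DC 54, 955 or 956 (adjusted p from 0.0692 to 0.0938). Ccna2 was lost without AdTGFb1 DC 14, 54, 954, 955 or 956 (adjusted p from 0.0520 to 0.0937), and Bub1 without any of the 6 AdTGFb1 libraries (adjusted p from 0.0519 to 0.192). Ndc80 was lost without any of these 6 (adjusted p from 0.0758 to 0.193) and Kif20a without AdTGFb1 DC 14, 52, 54, 954 or 956 (adjusted p from 0.0537 to 0.0969). The sex term also ended the calls of Bub1, Ndc80 and Kif20a (adjusted p from 0.0670 to 0.0738). Median effects were -0.68 for S phase and -1.45 for mitotic members. With AdCL, 3 members were higher in experiment 3 and 0 lower, against 9.02% of genes called (4.13% higher, 4.89% lower). They were Mcm3 (0.83 ± 0.17, adjusted p = 0.00304), Ccna2 (1.69 ± 0.50, adjusted p = 0.0362) and Cenpf (0.85 ± 0.26, adjusted p = 0.0414). Median effects with AdCL were 0.28 for S phase and 0.47 for mitotic members. Of the 44 effects with AdCL, 35 were positive and 9 negative, so the AdCL libraries of experiment 1 were mostly the lower ones. The call of Mcm3 held without any single library, while Ccna2 was lost without AdCL DC 8, 9, 943 or 949 (adjusted p from 0.0553 to 0.187) and Cenpf without AdCL DC 7, 8, 943 or 949 (adjusted p from 0.0669 to 0.150). Experiment and sex cannot be told apart among the AdCL libraries, since the 3 of experiment 1 are male and the 3 of experiment 3 female. These comparisons share libraries with those of the vectors and repeat their values from another side.

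Other genes of the same pathways rose in part in experiment 1, fewer of those of replication than of mitosis. Of 42 other replication genes, 7 were higher and 0 lower with AdTGFb1 in experiment 1 (median 0.61), against 10.6% and 14.1% of all tested genes, and none was called in experiment 3 (median 0.02), against 6.43%. The 4 with the smallest adjusted p over both experiments all rose. They were Rpa1, of the protein that covers single-stranded DNA (0.98 ± 0.19, adjusted p = 0.00140), Mcm10, a fork factor (1.11 ± 0.26, 0.00664), Rfc1, of the clamp loader (0.62 ± 0.17, 0.0156), and Fen1, which trims Okazaki fragments (0.62 ± 0.21, 0.0474). That of Fen1 was lost without AdCL DC 7, 9, 943 or 944 or AdTGFb1 DC 14, 52, 54, 954 or 955 (adjusted p from 0.0628 to 0.132), without a low-count filter (0.0829) and without a term for the experiment (0.111). Rfc1 was at 0.0542 and Fen1 at 0.159 with a term for sex. Of 40 other mitotic genes, 15 were higher and 1 lower in experiment 1 (median 1.13), beside the same shares of all genes, 1 was lower in experiment 3 (Stmn1, a microtubule destabiliser, -1.03 ± 0.30, adjusted p = 0.0360; lost without AdCL DC 944 or 949 or AdTGFb1 DC 954 or 956 at 0.0653 to 0.202, and at 0.0610 in the 6 libraries of experiment 3 alone), and 6 had a negative interaction, against 2.59% of all genes. Over both experiments Incenp, the scaffold of the passenger complex (0.76 ± 0.17, adjusted p = 0.00373), Espl1, the protease separase (0.60 ± 0.15, 0.00945), and Anln, of the contractile ring (0.99 ± 0.27, 0.0172), rose, and H2afz, a histone variant, fell (-0.57 ± 0.13, 0.00564). The call of Anln was lost without AdTGFb1 DC 52 (adjusted p = 0.0529) and with a term for sex (0.0896). Foxm1, the factor that drives many G2 and mitotic genes, had effects of 0.63 ± 0.29 and -0.58 ± 0.29 and an interaction of -1.22 ± 0.41 (adjusted p = 0.0776), none of which passed.

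Genes that control the passage through G1, among them drivers and inhibitors, were called in both directions. Of 27 tested D cyclins, CDKs, CDK inhibitors, pocket proteins and E2Fs, 6 were higher and 2 lower in experiment 1, and 0 higher and 1 lower in experiment 3. Of all tested genes 24.7% and 6.43% were called in these comparisons, so with both directions together the counts of this list were near the background. By direction, 10.6% of all tested genes were higher and 14.1% lower in experiment 1, and 1.97% and 4.46% in experiment 3. Ccnd2, cyclin D2, averaged 238 ± 33.3 CPM in AdCL and 71.2 ± 12.1 CPM in AdTGFb1 of experiment 1 (SD, n = 3), and 231 ± 108 and 124 ± 9.28 CPM in experiment 3. It fell in both experiments (-1.74 ± 0.24, adjusted p = 1.24e-05, and -0.90 ± 0.23, 0.0201). The latter call was lost without AdCL DC 944 or AdTGFb1 DC 954 (adjusted p from 0.0633 to 0.262) and in the 6 libraries of experiment 3 alone (0.0544). The other D cyclins, Ccnd1 (-0.10 ± 0.15) and Ccnd3 (0.19 ± 0.24), did not pass over both experiments. Cdkn1b, an inhibitor of cyclin E and A complexes, averaged 49.4 ± 5.21 and 30.7 ± 3.78 CPM in AdCL and AdTGFb1 of experiment 1, and 38.1 ± 2.93 and 52.4 ± 6.72 CPM in experiment 3. It fell in experiment 1 (-0.69 ± 0.21, adjusted p = 0.0180), had 0.46 ± 0.21 in experiment 3 (adjusted p = 0.229), and its interaction of 1.14 ± 0.29 (adjusted p = 0.0205) was the 1 positive one called in this list. Its call in experiment 1 was lost without AdCL DC 7 or 9 or AdTGFb1 DC 54 (adjusted p from 0.0531 to 0.0942), and its interaction without AdCL DC 9 or 949 or AdTGFb1 DC 54 or 956 (adjusted p from 0.0560 to 0.0670). They were at 0.254 and 0.201 with a term for sex. Cdkn2b, an inhibitor of CDK4 and CDK6 known as a target of TGF-β, fell as averaged over both experiments (-2.07 ± 0.56, adjusted p = 0.0148). That call was lost without AdCL DC 944 (adjusted p = 0.0565). Its level was 6.62 ± 2.75 CPM in AdCL of experiment 1. Within an experiment edgeR did not call Cdkn2b, while DESeq2 called it lower in experiment 1 (adjusted p = 0.0283) and experiment 3 (0.0304). Of the pocket proteins, Rbl1 (0.88 ± 0.23, 0.0132) and Rbl2 (0.76 ± 0.17, 0.00368) rose over both, the former at 0.0661 with a term for sex. Cdkn1a did not pass (-0.18 ± 0.11), and Cdkn2a, with 61 counts in all, was not tested.

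Markers of other cells moved beside the cell cycle genes. The summed level of 7 alveolar macrophage markers was 73.8 to 169.9 CPM in AdCL and 1082 to 2281 CPM in AdTGFb1 of experiment 1, and 211 to 619.6 and 68.4 to 128 CPM in experiment 3. As with the mitotic members, AdTGFb1 of experiment 1 was highest and AdCL of experiment 3 came next, while the other 2 groups overlapped. Its most abundant gene in AdTGFb1 of experiment 1 was Chil3, a chitinase-like protein, with 58.0 ± 45.2 and 1559 ± 538 CPM in experiment 1 and 252 ± 207 and 46.9 ± 7.94 CPM in experiment 3 (SD, n = 3). Of the 7 markers, 3 higher and 0 lower were called in experiment 1, 0 higher and 2 lower in experiment 3, and 3 had a negative interaction. Of all tested genes, for these and the next lists, 24.7%, 6.43% and 6.02% were called in these 3 comparisons. The 12 monocyte and macrophage markers summed to 4366 to 5774 and 12717 to 16278 CPM in experiment 1 and 8263 to 11565 and 18452 to 21956 CPM in experiment 3, with 11 higher with AdTGFb1 in experiment 1 and 10 in experiment 3, so they rose in both experiments while the mitotic members did not. The 8 endothelial markers summed to 144 to 534 CPM in AdCL and 24.5 to 42.8 CPM in AdTGFb1 of experiment 1, and 34.4 to 71.3 and 71.2 to 131 CPM in experiment 3. Of these, 7 fell in experiment 1, 0 were called in experiment 3, and 7 had a positive interaction. The 11 CD11b DC markers summed to 28727 to 31708, 18618 to 22833, 27217 to 36796 and 23759 to 29752 CPM in the 4 groups in the same order. Of these, 2 were higher and 7 lower in experiment 1, and 1 was higher and 5 lower in experiment 3, so the markers of the sorted cells fell more often than they rose in both. What part these cells have in the levels of the 44 genes was not tested.

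Other lists were lower in level or did not follow the mitotic order. In the 4 groups, AdCL and AdTGFb1 of experiment 1 and then of experiment 3, the 9 T cell markers summed to 17.2 to 30.8, 5.22 to 14.2, 45.2 to 64.0 and 73.7 to 100 CPM. The 8 B and plasma cell markers summed to 26.9 to 31.2, 38.5 to 98.9, 24.6 to 48.6 and 14.7 to 34.0 CPM, with the highest median in AdTGFb1 of experiment 1. The 6 NK cell markers gave 30.1 to 46.3, 20.7 to 25.3, 28.2 to 55.9 and 22.2 to 40.6 CPM, and the 6 neutrophil markers 16.5 to 28.5, 3.41 to 17.2, 21.8 to 47.8 and 1.95 to 3.35 CPM, with Camp at 0 in all 12 libraries. The 8 epithelial markers gave 109 to 427, 159 to 290.5, 97.6 to 151 and 79.8 to 134 CPM, and the 6 fibroblast markers 82.8 to 194, 21.4 to 68.1, 16.4 to 33.9 and 23.9 to 65.8 CPM. The 8 erythroid and platelet markers gave 38.0 to 53.6, 16.4 to 28.5, 38.6 to 44.1 and 30.4 to 35.6 CPM, with Hba-a1 and Hbb-b1 at 0 throughout. The 6 markers of plasmacytoid DCs gave 129 to 153, 118 to 145, 130.1 to 165 and 147 to 180.2 CPM, and the 7 of CD103 DCs 666 to 913, 503 to 658, 991 to 1316 and 705 to 714 CPM.

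**Figure D5:**
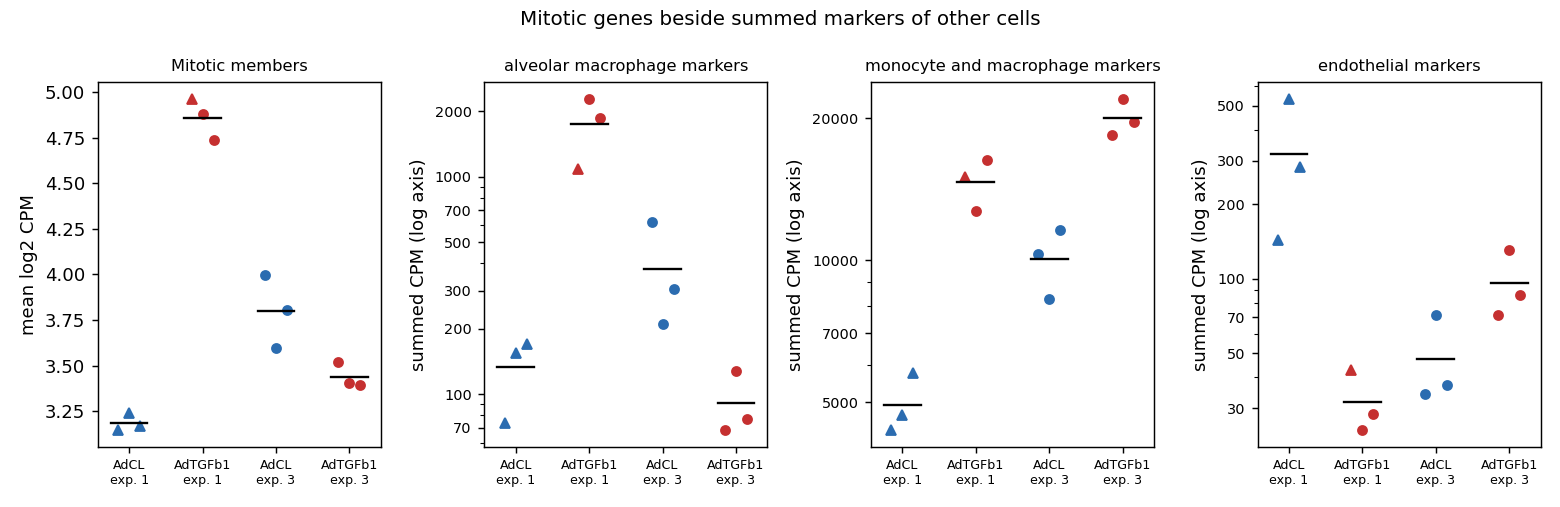
The first panel repeats the mean log2 CPM of the 27 mitotic members in each library, and the other panels show the summed CPM (log axis) of alveolar macrophage, monocyte and macrophage, and endothelial markers (blue AdCL, red AdTGFb1; triangles male, circles female; bars, group means). The alveolar macrophage sum reaches 1082 to 2281 CPM in AdTGFb1 of experiment 1, where the mitotic level is also highest. The endothelial sum is highest in AdCL of experiment 1, where this mean of the mitotic members is lowest.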

How the data were processed

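The authors deposited raw read counts per gene symbol, 1 column for each of the 12 libraries. As tools, with no roles, the submitters' processing notes list STAR 2.5.0c, HTSeq, DESeq2, FastQC 0.11.4, cutadapt 1.9.1, bcl2fastq and Trim Galore 0.4.1, and as build mm9. Per the labels' protocols, polyadenylated RNA went into a directional kit. Which annotation and which strand setting were used to count is not given in the sources used here. Of the members, 9 share exon sequence with a tested gene on the opposite strand (Mcm7, Tk1, Ccne2, Ccna2, Cdc20, Cdca8, Kif20a, Nusap1 and Prc1) and 4 have named processed copies (Pcna, Tyms, Ccnb1 and Ccnb2), so their counts are uncertain.

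The low-count filter of edgeR 4.0.16 (filterByExpr; R 4.3.3) kept 13221 of 24391 rows, and the whole table was fitted with TMM factors and the quasi-likelihood F test. An additive model of experiment and vector gave the effect over both experiments. A model with 4 groups gave the effects within an experiment, the interaction, and experiment 3 against experiment 1 within a vector. Tests were two-sided, with Benjamini-Hochberg adjustment over all tested genes. Levels are CPM with TMM-scaled library sizes, and class levels are means of log2 CPM with a prior count of 2. An SE was obtained by dividing the absolute effect by the root of F. The floor is 3 counts and covers counting error only, as PCR copies were not told apart by molecular identifiers. The fit was checked on simulated counts.

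The members and all lists were chosen with earlier results of these data known. By rule all 44 members are named, with up to 4 genes of each other cell cycle list by smallest adjusted p, and 7 fixed regulators (Cdkn1a, Cdkn1b, Cdkn2a, Ccnd1, Ccnd2, Ccnd3 and Foxm1). Stmn1 and Chil3 were chosen after their values were seen. Sex was read from Xist and Ddx3y. Alternatives were DESeq2 1.42.0, RLE factors, other filters, a term for sex, the additive fit without the experiment, fits within 1 experiment, and leaving out each library. The term for sex was added after seeing the data for the interaction and for experiment 3 against experiment 1 in AdTGFb1. GENCODE M21 gave exon lengths and overlaps only, with no coordinates.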

Additional observations from a re-analysis of the deposited data

Results flagged for a closer look

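The effect of AdTGFb1 on 17 of the 44 genes differed between the experiments by a test of the difference itself, the interaction in edgeR's quasi-likelihood test. As the log2 effect in experiment 3 minus that in experiment 1, the S phase genes were Mcm3 (-0.96), Mcm5 (-1.52) and Rrm1 (-1.42). Of the mitotic genes, the cyclins gave Ccna2 (-3.50) and Ccnb2 (-2.73), and the passenger, checkpoint and APC/C genes Birc5 (-2.54), Bub1 (-2.61), Bub1b (-1.53) and Ube2c (-2.54). The kinetochore genes gave Cenpe (-2.15) and Cenpf (-2.45), the spindle genes Kif11 (-1.57), Nusap1 (-2.19), Tpx2 (-1.70) and Prc1 (-2.07), and the chromosome genes Mki67 (-1.10) and Top2a (-1.64). In 10 of the 17 the call held without any single library, and in 7 it held in every setting tried, the term for sex included. For Mki67 the groups overlapped in experiment 1 and stood apart in experiment 3, while for Rrm1, Mcm3 and Mcm5 it was the reverse. Outside the 44, the interaction was also called for Stmn1 (-1.44) and Cdkn1b (1.14), both lost with a term for sex (0.213 and 0.201), and for the macrophage gene Chil3 (-7.17). No group had enough libraries for a check of single libraries that stand apart.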

How the results depend on the processing

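Of 6142 recomputed values of single genes, 5859 kept their side of the threshold, 91 newly passed and 192 no longer passed, and no value that had passed turned direction. With a term for sex, calls over both experiments went from 2271 to 1501 genes and from 4 to 1 S phase member, those in experiment 1 from 3264 to 1296 genes and from 16 to 10 mitotic members, and the interaction from 796 to 157 genes, from 3 to 0 S phase and from 14 to 8 mitotic members. With DESeq2, 4 mitotic members were higher over both experiments, 5 were lower in experiment 3, and the interaction was called for 1303 genes and 5 S phase members. Without a low-count filter, 5 mitotic members were lower in experiment 3 and 1222 genes had an interaction. With a minimum mean of 1 CPM, 5 S phase members had one. With members of at least 5 CPM, the S phase minus mitotic level of AdCL in experiment 1 was 0.39. Apart from a different set of genes tested or an added term, the cause was not tested. Leaving out 1 library at a time gave these ranges of calls. Over both experiments they were 1693 to 2488 genes, 2 to 6 S phase and 2 to 3 mitotic members higher and 0 to 1 mitotic members lower. In experiment 1 they were 2332 to 3342 genes, 8 to 10 S phase and 11 to 18 mitotic members higher and 0 to 1 lower, and in experiment 3 498 to 871 genes and 1 to 4 mitotic members lower. The interaction was called for 530 to 956 genes, 2 to 5 S phase and 10 to 15 mitotic members. Experiment 3 against experiment 1 gave 660 to 1247 genes, 1 to 2 S phase and 0 to 2 mitotic members higher in AdCL, and 570 to 1147 genes, 1 to 3 S phase and 9 to 17 mitotic members lower in AdTGFb1. The S phase minus mitotic level was 0.52 to 0.71 in AdCL and 0.03 to 0.05 in AdTGFb1 of experiment 1, then 0.11 to 0.29 and 0.51 to 0.69 in experiment 3. No paired analysis was possible because each library has a DC number of its own and the groups share no replicate numbers. Ttk, Ccnb1, Mad2l1, Ccne2 and Cdc6 had few counts, and differences in them were often not detectable at this depth.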
